A study of Mus musculus with 9 samples.

Results

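The 10 genes described here make or regulate the making of saturated and monounsaturated fatty acids: Fasn, Acaca, Acacb, Acly, Scd1, Scd2, Elovl6, Srebf1, Me1 and Thrsp. They were picked from the 41710 gene names of the deposited tables by their known function in lipogenesis, with the differences between these groups already known, so the list was chosen by function and by the read counts of the same comparisons. Their values between groups are therefore given as a description, without a test. The hearts came from male mice of the FVB/N strain aged 8 months on a standard diet, in 3 groups of 3 mice with 1 library for each heart. Tg-RKIP mice carried a transgene for the RAF kinase inhibitor protein (gene Pebp1), which the alpha-MHC promoter restricts to the myocardium. Tg-GRK2 mice carried a GRK2 transgene, whose promoter is not given in the sources used here. FVB mice carried no transgene.

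Lipogenesis starts from citrate that leaves the mitochondrion and is split to acetyl-CoA, which a carboxylase turns into malonyl-CoA. Fatty acid synthase joins these units into palmitate with reducing power from NADPH, and elongases and desaturases then lengthen the chain and add a double bond. Liver and adipose tissue are the main sites of this pathway, while the heart mostly burns fatty acids, and there malonyl-CoA is best known as the inhibitor of the mitochondrial carnitine transferase.

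Messenger RNA was sequenced from whole hearts as single reads of 50 bases, and the libraries held 25458108 to 33447654 reads assigned to transcripts. Mitochondrial transcripts took 11.5 to 11.8% of the reads in Tg-RKIP, 22.4 to 22.9% in Tg-GRK2 and 22.9 to 23.2% in FVB. Pebp1 had 252196 to 321666 reads in Tg-RKIP against 7140 to 8446 in FVB, which was 28.1 times as high after TMM scaling (explained below) and 49.9 times as high in TPM. Grk2 did not pass the test in the libraries labelled Tg-GRK2 (log2 fold change 0.05 ± 0.038, adjusted p = 0.354 by edgeR's quasi-likelihood test), at 27.3 ± 2.90 TPM (SD, n = 3) against 27.1 ± 1.05 TPM in FVB, so Tg-GRK2 below means the libraries with that label. Replicate 1 of Tg-GRK2 stood apart from its group through 18S ribosomal RNA, with 384039 reads of Rn18s against 55110 to 78546 in the other libraries. Every count of members below was repeated without that library, and values it changed are given. In whole hearts, fewer cells of a type and less RNA per cell cannot be told apart.

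Levels are given in TPM (a share of all transcripts that corrects for transcript length and allows genes to be compared), summed over the transcripts of a gene. Differences between groups are log2 fold changes of read counts, scaled by TMM (trimmed mean of M-values, which centres the typical gene at no change). The choice of scale mattered for Tg-RKIP. The median log2 fold change of the 15504 genes tested was 0.01 for Tg-RKIP over FVB with TMM, 0.38 with libraries scaled to total reads only, and 0.43 in TPM. Of the genes called different there, 49.8% were higher with TMM (5709 higher, 5751 lower) and 78.6% with total reads (9710 higher, 2649 lower). A gene of Tg-RKIP that differed little by TMM was thus often higher in TPM.

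All 10 genes were expressed in the heart and passed the filter on low counts. In FVB hearts Me1 had the highest TPM of the 10, followed by Acacb, Thrsp, Scd1, Acly, Fasn, Srebf1, Scd2, Acaca and Elovl6. Fasn and Srebf1, and Srebf1 and Scd2, overlapped between libraries in that order, and every other pair of neighbours was separate in all 3 libraries. Scd1 moved from rank 4 in FVB to rank 1 in both transgenic groups. Elovl6 and Acaca kept the lowest ranks in every group. The spread was small, with a coefficient of variation of the TPM between 0.364 and 11.1% for the members in any group.

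**Figure D1:**
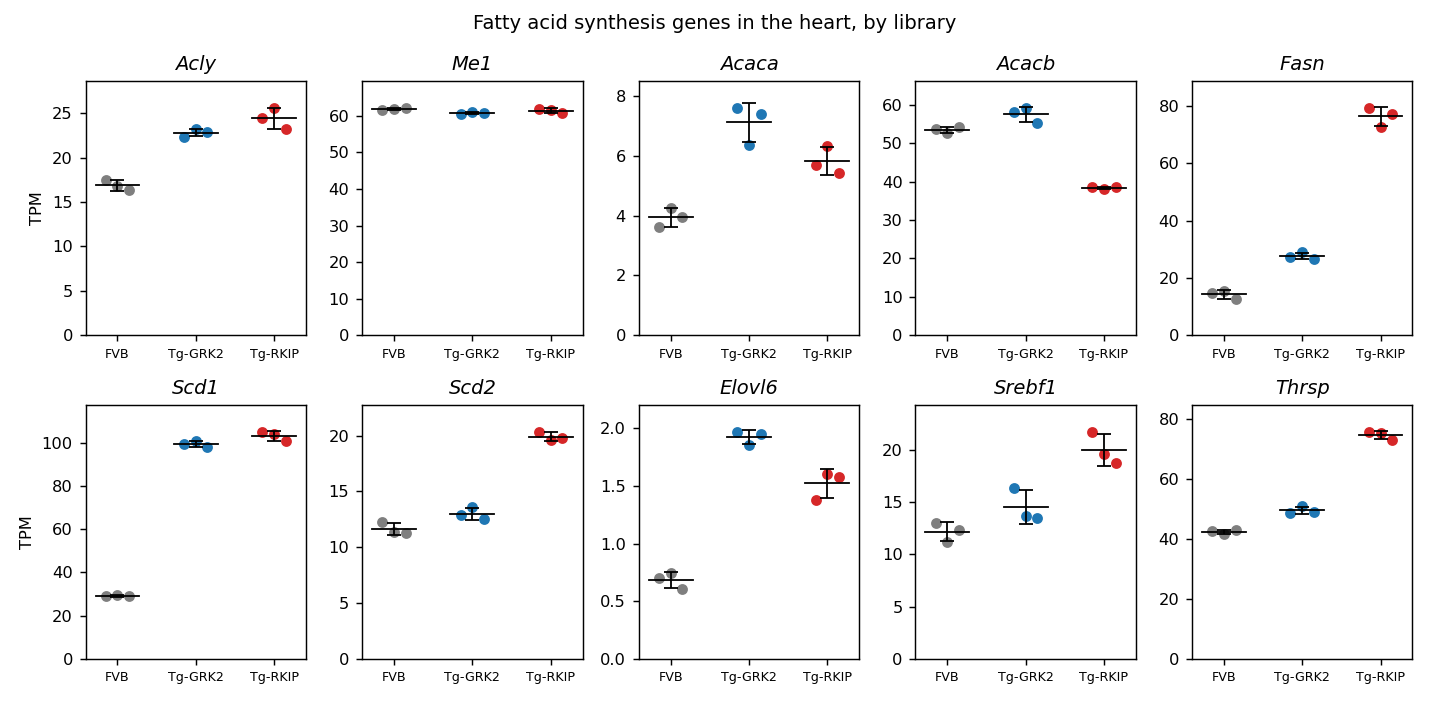
TPM of the 10 fatty acid synthesis genes in each library (points), with the group mean (long line) and SD (short lines, n = 3) for FVB, Tg-GRK2 and Tg-RKIP, each panel from 0. Scd1 was near 100 TPM in both transgenic groups against 29.3 in FVB, Me1 lay between 60.6 and 62.1 TPM in all 9 libraries, and Acacb was lowest in Tg-RKIP.

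Against FVB, Scd1 and Fasn lay furthest above in reads among the members of Tg-RKIP, and Scd1 and Elovl6 among those of Tg-GRK2. Scd1 reads after TMM scaling were 2.64 times as high in Tg-RKIP and 3.28 times as high in Tg-GRK2, and Fasn reads were 1.92 and 2.15 times as high. Acacb reads stood at 0.475 times the FVB level in Tg-RKIP and at 1.07 times in Tg-GRK2. In the fit over all genes, 8 members lay past the threshold as higher and 2 as lower in Tg-RKIP over FVB, where 36.8% of all genes tested were called higher and 37.1% lower. In Tg-GRK2 over FVB, 8 members were called higher and 1 lower, against 12.2% of all genes higher and 12.2% lower. The members' groups did not overlap in TMM-scaled counts for 10 of 10 in Tg-RKIP against FVB and 9 of 10 in Tg-GRK2 against FVB, where 75.7% and 37.1% of all genes did not overlap. Since the list was chosen with these comparisons known, nothing is read from these counts. The median log2 fold change of the members was 0.33 in Tg-RKIP and 0.29 in Tg-GRK2, beside 0.01 and -0.00229 for all genes tested. Both comparisons use the same 3 FVB libraries.

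**Figure D2:**
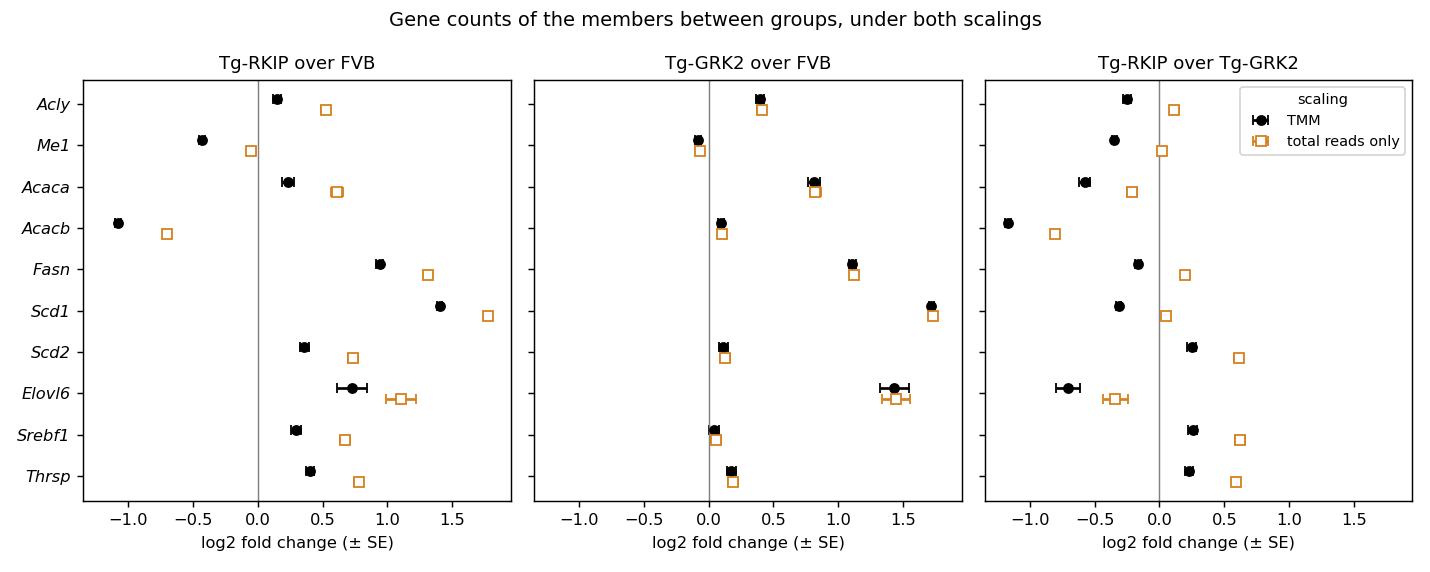
Log2 fold change of the read counts of each member (horizontal axis, ± SE) in 3 comparisons, with TMM scaling (filled circles) and with libraries scaled to total reads only (open squares). Under total reads the values of Tg-RKIP shift upward by a similar amount, so that in Tg-RKIP over Tg-GRK2 the values of Fasn, Acly, Scd1 and Me1 change sign, and those of Tg-RKIP over FVB keep theirs.

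The first steps supply carbon and reducing power. Acly, the ATP citrate lyase that splits cytosolic citrate into acetyl-CoA, lies on chromosome 11 at 100367179 to 100418826 (minus strand, GRCm39). Its levels were 17.5, 16.8 and 16.3 TPM in FVB, 22.4, 23.2 and 22.9 TPM in Tg-GRK2, and 24.5, 25.6 and 23.2 TPM in Tg-RKIP. All 6 transgenic libraries were above the FVB libraries, and Tg-GRK2 and Tg-RKIP overlapped in TPM. The read counts gave a log2 fold change of 0.15 ± 0.033 (SE) for Tg-RKIP and 0.40 ± 0.033 for Tg-GRK2, each over FVB.

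Me1, the cytosolic malic enzyme that yields NADPH, lies on chromosome 9 at 86463424 to 86578006 (minus strand). It had the steadiest level of the list in TPM, at 61.6, 61.9 and 62.1 in FVB, 60.6, 61.0 and 60.7 in Tg-GRK2, and 61.9, 61.7 and 60.8 in Tg-RKIP. Me1 counts were nonetheless lower than FVB by TMM, with a log2 fold change of -0.43 ± 0.022 in Tg-RKIP and -0.08 ± 0.022 in Tg-GRK2. For Tg-RKIP the TPM difference was -0.01 on the log2 scale, and with total reads it was -0.05. Neither Me1 comparison with FVB passed the threshold with limma on TPM, and the one of Tg-GRK2 did not pass with DESeq2 (-0.07). Me1 thus lay below the typical gene of Tg-RKIP by reads, while its share of all transcripts was 0.994 times that of FVB in Tg-RKIP and 0.982 times in Tg-GRK2.

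The carboxylases make malonyl-CoA. Acaca encodes the cytosolic acetyl-CoA carboxylase 1 that feeds lipogenesis (chromosome 11, 84020498 to 84292477, plus strand). It stood at 3.62, 4.26 and 3.95 TPM in FVB, 7.59, 6.37 and 7.40 in Tg-GRK2, and 5.68, 6.33 and 5.44 in Tg-RKIP. No transgenic library overlapped FVB, and each Tg-GRK2 library was above each Tg-RKIP library. The log2 fold change of the counts over FVB was 0.81 ± 0.045 in Tg-GRK2 and 0.23 ± 0.046 in Tg-RKIP.

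Acacb encodes carboxylase 2 of the mitochondrial outer membrane, whose malonyl-CoA restrains fatty acid import (chromosome 5, 114284596 to 114388822, plus strand). The levels were 53.6, 52.7 and 54.3 TPM in FVB, 58.2, 59.1 and 55.3 in Tg-GRK2, and 38.6, 38.1 and 38.6 in Tg-RKIP. Tg-RKIP was lowest in every library. The counts differed by -1.07 ± 0.023 on the log2 scale for Tg-RKIP and by 0.09 ± 0.022 for Tg-GRK2 over FVB. The ratio of Acacb to Acaca in TPM, which does not depend on the scaling of the library, was 13.6 ± 1.22 (SD, n = 3) in FVB, 8.14 ± 0.991 in Tg-GRK2 and 6.63 ± 0.559 in Tg-RKIP. Its 3 FVB values, 14.8, 12.4 and 13.7, were all above the highest transgenic value of 9.28. Most of the Acacb level in Tg-RKIP, 34.0 of 38.4 TPM, lay on a transcript classed as retained intron, and the full-length transcripts had 4.42 ± 0.529 TPM there against 44.2 ± 2.81 in Tg-GRK2 and 33.9 ± 0.887 in FVB, so the ratio does not stand for the full-length carboxylase.

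Fasn encodes fatty acid synthase, which builds palmitate (chromosome 11, 120696672 to 120715373, minus strand). It had 14.7, 15.4 and 12.5 TPM in FVB, 27.3, 28.9 and 26.7 in Tg-GRK2, and 79.2, 72.7 and 77.2 in Tg-RKIP. The 3 groups did not overlap on this scale. In reads Tg-RKIP did not stand above Tg-GRK2 with TMM, though it did with total reads (0.20 on the log2 scale). TMM-scaled CPM (counts scaled to a common library size) was 64.1 ± 1.53 in FVB, 138 ± 1.27 in Tg-GRK2 and 123 ± 1.28 in Tg-RKIP. The log2 fold change of the counts over FVB was 1.11 ± 0.026 in Tg-GRK2 and 0.94 ± 0.026 in Tg-RKIP, while the TPM ratio to FVB was 1.94 ± 0.081 and 5.37 ± 0.235. With protein-coding transcripts only, a selection made after the data were seen, the value for Tg-RKIP was 0.65, and on the most abundant transcript alone it was 0.20. The transcripts that hold the reads differ in length, and a read on a short transcript adds more TPM than a read on a long one.

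The promoter of Fasn is shown because it carries 3 copies of CCAAT, the most of the list. RefSeq promoter windows (build GRCm38.p6, 250 bases before a start) were found for 8 of the 10 members, 11 windows in all. The letters CCAAT, read on both strands, occur in 6 of these 11 windows and in 33.8% of all 32851 windows. The GC box GGGCGG occurs in 4 of the 11 and in 32.7% of all, and the E-box CACGTG in 0 of the 11 and in 6.02% of all. In the Fasn window, chr11:120824548-120824797 on the minus strand, the CCAAT matches begin 90, 62 and 59 bases before the start, and the last 2 overlap. Capitals mark these matches, 5′ to 3′ along the gene.
Fasn: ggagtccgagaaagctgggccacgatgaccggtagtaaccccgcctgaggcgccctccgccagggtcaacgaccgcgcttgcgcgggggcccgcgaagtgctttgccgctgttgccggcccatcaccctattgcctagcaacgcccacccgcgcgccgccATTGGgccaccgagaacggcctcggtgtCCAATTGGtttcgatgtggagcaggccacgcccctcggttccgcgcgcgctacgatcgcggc
The matches describe the sequence and were not compared with any binding data.

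The desaturases and the elongase follow synthase. Scd1, the stearoyl-CoA desaturase that makes oleate and palmitoleate (chromosome 19, 44382894 to 44396318, minus strand), had 28.9, 29.7 and 29.1 TPM in FVB, 99.3, 101 and 98.3 in Tg-GRK2, and 105, 104 and 101 in Tg-RKIP. It was the most abundant of the list in every transgenic library, and the transgenic groups overlapped each other in TPM. The log2 fold change over FVB was 1.72 ± 0.021 in Tg-GRK2 and 1.40 ± 0.021 in Tg-RKIP, the furthest from 0 among the members in each. It exceeded 99.4% of all tested genes in Tg-GRK2 and 94.1% in Tg-RKIP.

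Scd2, the paralog with the same activity (chromosome 19, 44282113 to 44295303, plus strand), did not follow Scd1 in Tg-GRK2. It had 12.2, 11.4 and 11.3 TPM in FVB, 12.9, 13.6 and 12.5 in Tg-GRK2, and 20.3, 19.6 and 19.8 in Tg-RKIP. The Tg-RKIP libraries lay well above the rest, and Tg-GRK2 lay just above FVB. The log2 fold change was 0.36 ± 0.036 in Tg-RKIP and 0.11 ± 0.037 in Tg-GRK2. The second of these no longer passed the threshold without Tg-GRK2 replicate 1 (0.12), Tg-GRK2 replicate 2 (0.09), FVB replicate 2 (0.10) or FVB replicate 3 (0.09), nor with DESeq2 (0.12). The ratio of Scd1 to Scd2 in TPM was 2.52 ± 0.130 in FVB, 5.19 ± 0.123 in Tg-RKIP and 7.66 ± 0.204 in Tg-GRK2, with no overlap between groups.

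Elovl6, which elongates palmitate toward stearate (chromosome 3, 129326004 to 129432144, plus strand), was the rarest member. It had 0.703, 0.748 and 0.609 TPM in FVB, 1.97, 1.85 and 1.95 in Tg-GRK2, and 1.38, 1.61 and 1.58 in Tg-RKIP, from 65 to 249 reads a library. The groups did not overlap and Tg-GRK2 was highest. The log2 fold change over FVB was 1.43 ± 0.109 in Tg-GRK2 and 0.73 ± 0.115 in Tg-RKIP, with the widest errors of the list.

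Srebf1 encodes SREBP-1, the transcription factor that drives lipogenic genes after cleavage from the endoplasmic reticulum (chromosome 11, 60089915 to 60113407, minus strand). It had 13.0, 11.2 and 12.4 TPM in FVB, 16.4, 13.7 and 13.5 in Tg-GRK2, and 21.7, 19.6 and 18.7 in Tg-RKIP. TPM was higher in this order of groups without overlap, but the counts of Tg-GRK2 and FVB overlapped, with a log2 fold change of 0.04 ± 0.040. For Tg-RKIP it was 0.30 ± 0.038. Thrsp, a small nuclear protein tied to lipogenesis (Spot 14; chromosome 7, 97062145 to 97066937, minus strand), had 42.4, 41.5 and 42.9 TPM in FVB, 48.7, 50.8 and 48.8 in Tg-GRK2, and 75.6, 75.3 and 73.0 in Tg-RKIP. The groups did not overlap, and the log2 fold change over FVB was 0.40 ± 0.033 in Tg-RKIP and 0.18 ± 0.034 in Tg-GRK2.

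The reads of 3 members sat on different transcripts in Tg-RKIP than in the other groups. Transcript usage, the share of a gene's reads on each transcript, could be fitted for 5 members, those with at least 2 transcripts above the filter. Acacb, Fasn and Srebf1 lay past the threshold in Tg-RKIP over FVB, where 17.0% of the 8967 genes with such transcripts were called, and the same 3 did in Tg-RKIP over Tg-GRK2, where 21.1% were called. Acaca and Acly did not pass in any comparison. In Tg-GRK2 over FVB only Acacb passed, against 1.58% of genes. Without Tg-GRK2 replicate 1, 0 members passed in that comparison, and without Tg-GRK2 replicate 2 there were 2. These shares depend on how a read that fits more than 1 transcript was assigned, which is not given in the sources used here. The usage test also made more false calls than its threshold allows on simulated data whose spread differed between transcripts of a gene.

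In Acacb the difference was between a transcript that begins inside the gene and the full-length ones. The internal transcript ENSMUST00000143276 (6680 bases, 41 exons, classed as retained intron) begins at 114337840 on chromosome 5 (GRCm39), in an intron of the full-length transcript ENSMUST00000031583 (8482 bases, 52 exons). It had 3882, 4782 and 3771 reads in Tg-RKIP, 1396, 1586 and 1958 in Tg-GRK2, and 2459, 2412 and 2333 in FVB. This was 85.6% ± 1.76 (SD, n = 3) of Acacb reads in Tg-RKIP, 18.2% ± 2.53 in Tg-GRK2 and 30.5% ± 2.16 in FVB. The pair of full-length transcripts, ENSMUST00000031583 and ENSMUST00000102582, had 557, 914 and 644 reads in Tg-RKIP against 7532, 7000 and 7511 in Tg-GRK2 and 5144, 6161 and 5179 in FVB. No library of Tg-RKIP overlapped the others. With TMM scaling, reads of this pair differed by -3.34 on the log2 scale between Tg-RKIP and FVB, while those of the internal transcript differed by 0.42. With protein-coding transcripts only, the log2 fold change of Acacb was -3.32 in Tg-RKIP over FVB in place of -1.07, 0.33 in Tg-GRK2 over FVB in place of 0.09, and -3.65 in Tg-RKIP over Tg-GRK2 in place of -1.17.

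The junctions that tell these transcripts apart are shown from the GENCODE M21 transcripts, whose lengths equal those in the deposited table. Capitals are the first 40 bases of the shared exon (114338301 to 114338451, GRCm39), and lower case is the 60 bases before it in each transcript. In the internal transcript those come from its own first exon (114337840 to 114338147), and in the full-length one from exon 12 (114336238 to 114336401).
Acacb internal transcript: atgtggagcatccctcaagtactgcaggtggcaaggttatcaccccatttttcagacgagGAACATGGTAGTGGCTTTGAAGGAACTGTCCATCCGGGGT
Acacb full-length transcript: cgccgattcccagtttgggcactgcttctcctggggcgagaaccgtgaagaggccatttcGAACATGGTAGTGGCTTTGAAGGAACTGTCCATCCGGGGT
Reads on the capitals alone cannot separate the 2 transcripts, and reads across the junction can.

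In Fasn most of the added TPM of Tg-RKIP lay on short transcripts near the 3′ end of the gene. ENSMUST00000155276 (976 bases, 2 exons) and ENSMUST00000146541 (762 bases, 4 exons), both classed as retained intron, together had 881, 1020 and 855 reads in Tg-RKIP, 72, 92 and 77 in Tg-GRK2, and 69, 106 and 38 in FVB. They held 22.4% ± 1.06 of Fasn reads in Tg-RKIP, 2.12% ± 0.363 in Tg-GRK2 and 4.21% ± 1.81 in FVB. In TPM they made up 56.7 ± 3.33 in Tg-RKIP, 5.14 ± 0.736 in Tg-GRK2 and 4.36 ± 1.87 in FVB. The pair of 43-exon transcripts that encode the full protein had 19.7 ± 0.181 TPM in Tg-RKIP, 22.4 ± 0.341 in Tg-GRK2 and 9.86 ± 0.427 in FVB. On these transcripts alone Fasn stood in TPM at 2.00 times the FVB level in Tg-RKIP and 2.27 times in Tg-GRK2. Tg-RKIP was below Tg-GRK2 in every library. With TMM, reads of this pair differed from FVB by 0.64 on the log2 scale in Tg-RKIP and by 1.14 in Tg-GRK2. Within the pair, ENSMUST00000055655 took 27.6% of Fasn reads in Tg-RKIP against 13.1% in FVB. ENSMUST00000206589 took 50.0% against 82.6%. By transcript both of these and ENSMUST00000155276 passed the usage test in Tg-RKIP over FVB, and ENSMUST00000146541 did not.

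The retained stretch of ENSMUST00000155276 is shown because reads inside it separate this transcript from spliced Fasn. The 175 lower-case bases are the intron between exons 41 and 42 of ENSMUST00000055655 (chromosome 11, 120699153 to 120699327, GRCm39, minus strand), and capitals are 40 exon bases on each side.
Fasn retained intron: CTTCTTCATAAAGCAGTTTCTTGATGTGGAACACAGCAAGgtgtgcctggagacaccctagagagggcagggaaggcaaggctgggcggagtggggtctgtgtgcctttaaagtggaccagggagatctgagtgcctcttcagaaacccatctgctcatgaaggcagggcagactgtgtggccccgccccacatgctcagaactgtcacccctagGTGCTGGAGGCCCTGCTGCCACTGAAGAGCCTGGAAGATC
This transcript had 565, 670 and 575 reads in Tg-RKIP, 9, 41 and 9 in Tg-GRK2, and 21, 47 and 26 in FVB.

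Srebf1 has alternative first exons, and one of its transcripts had no read in Tg-RKIP. ENSMUST00000144942, which begins at 60101291 on chromosome 11 (GRCm39), had 0 reads in each Tg-RKIP library, 124, 166 and 235 in Tg-GRK2, and 130, 126 and 148 in FVB. With 1214 to 1561 Srebf1 reads in a Tg-RKIP library, a count of 0 allows a share of up to 0.192 to 0.247%, where the share was 18.4% ± 4.90 in Tg-GRK2 and 15.8% ± 2.49 in FVB. Set against a floor of 3 reads in each Tg-RKIP library, its TMM-scaled count was at least 57.6 times higher in FVB and at least 68.8 times higher in Tg-GRK2. This limit covers counting error only. ENSMUST00000020846, which begins upstream at 60111430, had 436, 664 and 384 reads in Tg-RKIP, 258, 257 and 239 in Tg-GRK2, and 185, 264 and 250 in FVB. It took 35.8% ± 5.86 of Srebf1 reads in Tg-RKIP against 26.8% ± 2.82 and 27.2% ± 4.99 in Tg-GRK2 and FVB, and by transcript it did not pass the usage test, where ENSMUST00000144942 did. The remaining main transcript, ENSMUST00000134660, begins further inside the gene at 60098014 and took 62.5% ± 6.15, 50.8% ± 0.435 and 55.7% ± 6.71. The short processed transcripts ENSMUST00000149238 and ENSMUST00000154620 also had 0 reads in each Tg-RKIP library. ENSMUST00000149238 had 54, 0 and 11 reads in Tg-GRK2 and 10, 0 and 1 in FVB. ENSMUST00000154620 had 14, 18 and 5 in Tg-GRK2 and 0, 0 and 13 in FVB. ENSMUST00000147967 had no read in any library.

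The sequence before the start of ENSMUST00000144942 is shown with that before the upstream start for comparison. Each window is 250 bases before a RefSeq start (GRCm38.p6, minus strand), and capitals mark CCAAT or GGGCGG on either strand. ENSMUST00000020846 begins 23 bases after the start site of the upstream window, chr11:60220628-60220877. ENSMUST00000144942 begins 6 bases after that of the downstream window, chr11:60210472-60210721.
Srebf1 upstream start: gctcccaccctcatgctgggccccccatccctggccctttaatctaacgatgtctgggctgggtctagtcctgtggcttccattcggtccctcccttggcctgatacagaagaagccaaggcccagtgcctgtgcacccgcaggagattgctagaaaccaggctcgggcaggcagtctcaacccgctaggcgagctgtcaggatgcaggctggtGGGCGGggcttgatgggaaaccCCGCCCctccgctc
Srebf1 downstream start: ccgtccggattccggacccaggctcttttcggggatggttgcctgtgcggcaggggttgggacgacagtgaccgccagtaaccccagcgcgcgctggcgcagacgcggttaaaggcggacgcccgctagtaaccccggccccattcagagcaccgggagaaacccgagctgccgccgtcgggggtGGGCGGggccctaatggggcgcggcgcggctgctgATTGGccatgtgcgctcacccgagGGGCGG
Each window holds 2 GGGCGG matches, and only the downstream one holds CCAAT, 30 bases before its start.

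**Figure D3:**
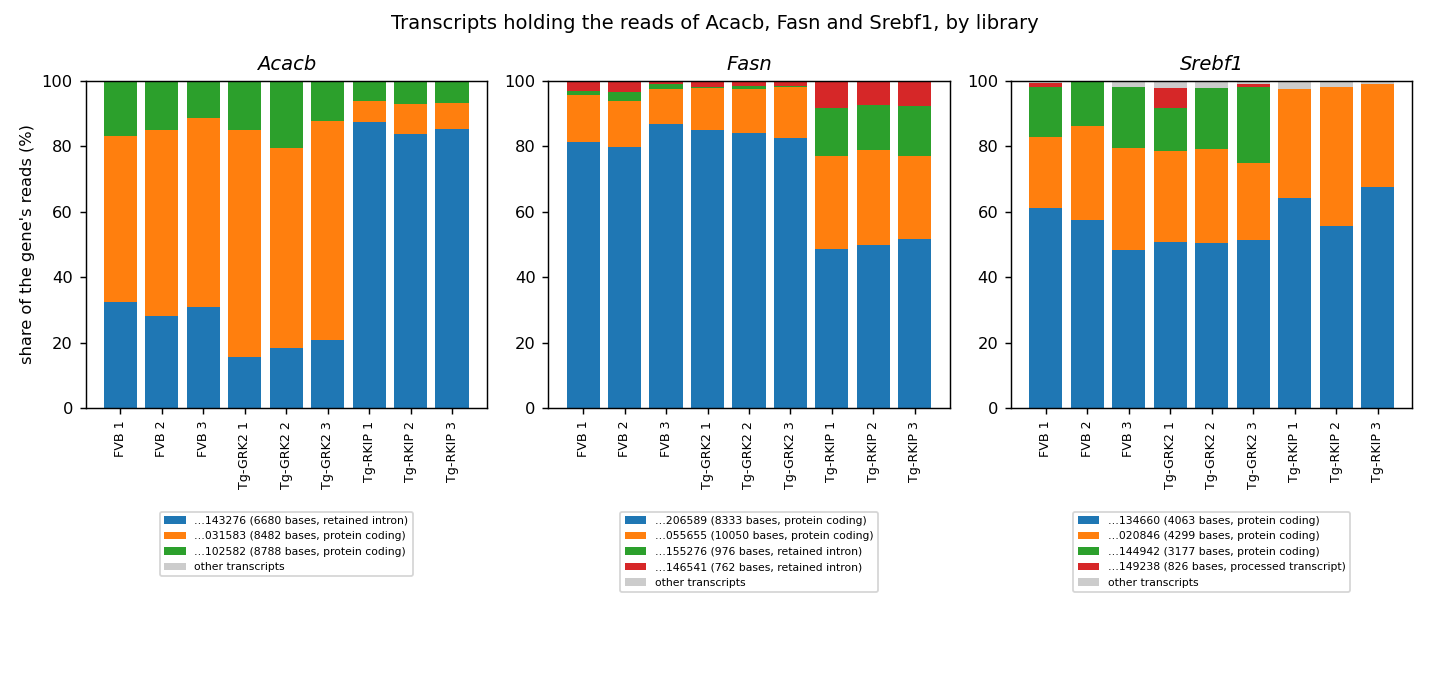
Share of the reads of Acacb, Fasn and Srebf1 on each transcript (vertical axis, percent) in the 9 libraries, stacked by colour, with the Ensembl identifiers shortened to their last digits and the remaining transcripts in grey. In Tg-RKIP the internal Acacb transcript took 85.6% of reads on average, the short Fasn transcripts 22.4%, and the Srebf1 transcript ENSMUST00000144942 had 0 reads.

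Long genes as a class lay lower in Tg-RKIP with TMM. Among the members Acacb, Acaca and Fasn are over 6000 bases long. Of these Acacb was lower than FVB (-1.07), while Fasn (0.94) and Acaca (0.23) were higher. The median log2 fold change over FVB was -0.35 for the 1491 genes with a read-weighted transcript length over 6000 bases, -0.02 for 8918 genes of 2000 to 6000 bases and 0.17 for 5095 genes under 2000 bases. In Tg-GRK2 over FVB these medians were 0.07, 0.01 and -0.06. The read-weighted length was 7970 bases in FVB and 6959 in Tg-RKIP for Acacb, and 8244 and 7141 for Fasn, while over 11864 genes with several transcripts 50.1% had a shorter one. The part of transcript length in the shifts was not tested.

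Set directly against each other, the transgenic groups differed in which member was higher, and part of this turned on the scaling. With TMM, Acacb differed by -1.17 ± 0.023 on the log2 scale in Tg-RKIP over Tg-GRK2, Elovl6 by -0.70 ± 0.094 and Acaca by -0.58 ± 0.041, and these kept their sign with total reads (-0.81, -0.34 and -0.21) and in TPM. Srebf1 (0.25 ± 0.037), Scd2 (0.25 ± 0.035) and Thrsp (0.23 ± 0.032) were higher in Tg-RKIP, also with total reads (0.62, 0.61 and 0.59). Me1 (-0.35 ± 0.022), Scd1 (-0.31 ± 0.019), Acly (-0.25 ± 0.032) and Fasn (-0.17 ± 0.023) were lower by TMM but not with total reads, where they stood at 0.02, 0.05, 0.12 and 0.20. In the fit over all genes 3 members were called higher and 7 lower, against 37.9% and 36.6% of all genes, and with total reads 6 higher and 3 lower. TMM-scaled counts did not overlap for 10 of 10 members, where 76.4% of all genes did not overlap. The median of the members was -0.28, beside 0.02 for all genes.

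The rest of the pathway was taken from lists of 81 other genes written by function, of which 77 were tested. The lists were written with earlier results of these data known. In Tg-RKIP over FVB 25 rose and 39 fell, and 13 did not pass, where 36.8% of all genes were called higher and 37.1% lower. With total reads the split was 47 higher and 23 lower, where 9710 of all 15504 genes were higher and 2649 lower. In Tg-GRK2 over FVB 15 rose and 16 fell, and 46 did not pass, where 12.2% of all genes were called higher and 12.2% lower. Values of single genes below are with TMM. Values with total reads were listed for 30 of them, all but Cpt1a and Cpt1b. Total reads put each of these 30 genes higher by 0.37 to 0.38 on the log2 scale in Tg-RKIP over FVB. This changed the sign of 3 of them, Mid1ip1, Mecr and Lias. In Tg-GRK2 over FVB total reads put the 30 higher by 0.01. The median log2 fold change of the 77 genes was -0.08 in Tg-RKIP and 0.01 in Tg-GRK2, beside 0.01 and -0.00229 for all genes.

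In the carbon supply list some genes rose and others fell in Tg-RKIP. Slc25a1, the carrier that exports citrate from the mitochondrion, rose by 1.44 ± 0.066 on the log2 scale (adjusted p = 1.55e-14 by edgeR's quasi-likelihood test) and Acss2, which makes acetyl-CoA from acetate, by 0.23 ± 0.037 (adjusted p = 8.00e-06). Cs, the citrate synthase of the mitochondrial matrix, fell by 1.10 ± 0.015 and Mdh1, the cytosolic malate dehydrogenase, fell by 0.70 ± 0.016. In Tg-GRK2 Slc25a1 rose by 0.49 ± 0.077 (adjusted p = 5.06e-05) and Acss2 by 0.22 ± 0.038, and Cs was at 0.01 ± 0.015. Of the 5 genes of this list 2 rose and 3 fell in Tg-RKIP, where 36.8% of all genes were called higher and 37.1% lower. In Tg-GRK2 2 rose and 1 fell, where 12.2% of all genes were called higher and 12.2% lower. The list medians were -0.39 in Tg-RKIP and 0.03 in Tg-GRK2. With total reads 2 were higher and 2 lower in Tg-RKIP, with a median of -0.01.

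In the NADPH list, 4 of 6 genes rose in Tg-RKIP and 2 fell, against 36.8% and 37.1% of all genes. The list median was 0.51. The 4 that rose are enzymes of the pentose phosphate pathway. Among them G6pdx, its entry enzyme, rose by 0.83 ± 0.071 and Tkt, the transketolase, rose by 0.73 ± 0.040. Idh1, the cytosolic isocitrate dehydrogenase, fell by 0.55 ± 0.030 with TMM (-0.18 with total reads), and Me3, the mitochondrial relative of Me1, fell by 0.79 ± 0.028 (adjusted p = 1.33e-16). In Tg-GRK2 2 rose and 1 fell with a median of 0.05, against 12.2% of all genes each way. Tkt rose there by 0.29 ± 0.043, Idh1 fell by 0.14 ± 0.029, and G6pdx at 0.05 ± 0.081 and Me3 at 0.01 ± 0.027 did not pass.

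Of 14 tested genes for elongation and desaturation, 7 rose and 4 fell in Tg-RKIP, against 36.8% and 37.1% of all genes. Their median was 0.32, and total reads gave 11 higher and 3 lower with a median of 0.70. In Tg-GRK2 2 rose and 4 fell with a median of -0.06, against 12.2% of all genes each way. Hacd4, a dehydratase of the elongation cycle, rose by 1.21 ± 0.058, and Elovl1, an elongase of very long chains, rose by 0.87 ± 0.055. Hacd1, the dehydratase typical of muscle, fell by 1.03 ± 0.048. Scd4, a desaturase paralog of the heart, fell by 3.20 ± 0.184 (adjusted p = 8.15e-13), from 99 to 134 reads a library in FVB to 12 to 22 in Tg-RKIP. In Tg-GRK2 Scd4 fell by 0.55 ± 0.138, Elovl1 fell by 0.18 ± 0.064, Hacd4 rose by 0.20 ± 0.067 and Hacd1 was at -0.11 ± 0.044, which did not pass. Scd3 had 1 to 12 reads a library and was not tested, nor was Elovl3, and Elovl2 had at most 3 reads in every library. The 4 Scd genes are close relatives, and how reads that match several of them were counted is not given.

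Of 15 regulators of the pathway 3 rose and 7 fell in Tg-RKIP with TMM, against 36.8% and 37.1% of all genes. But with total reads 12 were higher and 2 lower. Insig1, which retains SREBPs in the endoplasmic reticulum, rose by 0.30 ± 0.049 and Usf1, a factor that binds E-boxes, by 0.18 ± 0.043. Ppargc1b, a coactivator, fell by 0.88 ± 0.078 and Mlxip, a relative of the carbohydrate response factor, fell by 0.52 ± 0.035. Srebf2, the paralog of Srebf1 for sterol synthesis, was at 0.09 ± 0.049 in Tg-RKIP and 0.01 ± 0.050 in Tg-GRK2, and neither passed, but with total reads it was higher in Tg-RKIP, at 0.46 (adjusted p = 1.29e-08 by edgeR's quasi-likelihood test). Mid1ip1, the paralog of Thrsp, fell by 0.23 ± 0.024 in Tg-RKIP with TMM but was at 0.14 with total reads, and it was at 0.00 ± 0.024 in Tg-GRK2. In Tg-GRK2 1 of the 15 regulators rose and 1 fell, against 12.2% of all genes each way. Usf1 was the one that fell, by 0.14 ± 0.046, and Insig1 (0.08 ± 0.052), Ppargc1b (0.07 ± 0.071) and Mlxip (0.08 ± 0.034) did not pass.

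Of 11 genes that use malonyl-CoA or control the carboxylases, 3 rose and 6 fell in Tg-RKIP with TMM (median -0.31). The shares of all genes were 36.8% and 37.1%. With total reads 5 of the 11 were higher and 3 lower. Mlycd, the decarboxylase that removes malonyl-CoA, fell by 0.91 ± 0.031. Prkaa2, the catalytic AMP kinase subunit of muscle, fell by 1.28 ± 0.020, and Prkag2, a regulatory subunit of the same kinase, rose by 0.89 ± 0.036. Cpt1c, the carnitine transferase form of the nervous system, rose by 1.11 ± 0.161. In Tg-GRK2 3 rose and 4 fell, with a median of -0.03, against 12.2% of all genes each way. Prkaa2 rose there by 0.22 ± 0.019, Prkag2 fell by 0.19 ± 0.040, and Mlycd at -0.03 ± 0.029 and Cpt1c at 0.04 ± 0.188 did not pass. Cpt1b fell by 0.14 ± 0.018 and Cpt1a by 0.28 ± 0.047 in that group.

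The separate pathway of the mitochondrion, which makes the lipoic acid precursor, was lower in Tg-RKIP with TMM but less so with total reads. All 8 tested genes of this list fell with TMM (median -0.59), where 37.1% of all genes were called lower. The falls ran from Cbr4 by 0.80 ± 0.039 and Oxsm by 0.80 ± 0.043 to Mecr by 0.22 ± 0.049 and Lias by 0.20 ± 0.034. With total reads 5 were lower and 2 higher, and Mecr and Lias changed sign to 0.15 and 0.18. In Tg-GRK2 1 rose and 3 fell, with a median of 0.03, against 12.2% of all genes each way. Oxsm rose by 0.12 ± 0.040, Cbr4 fell by 0.19 ± 0.038, Lias fell by 0.10 ± 0.035 and Mecr was at 0.00 ± 0.049. Hsd17b8 was not analysed here.

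Of 18 genes that activate acyl chains or build glycerolipids, 6 rose and 9 fell in Tg-RKIP with TMM (median -0.10). The shares of all genes were 36.8% and 37.1%. With total reads 11 of the 18 were higher and 6 lower. Acsl1, the main acyl-CoA synthetase of the heart, fell by 1.5 ± 0.017 and Dgat2, which adds the last chain to triglyceride, fell by 1.37 ± 0.023. Agpat4, an acyltransferase, rose by 0.96 ± 0.105 and Lpin3, a phosphatidate phosphatase, by 0.53 ± 0.118. In Tg-GRK2 4 rose and 2 fell, with a median of -0.03, against 12.2% of all genes each way. Dgat2 fell by 0.22 ± 0.022, Acsl1 rose by 0.08 ± 0.017, and Agpat4 at -0.21 ± 0.124 and Lpin3 at -0.03 ± 0.129 did not pass.

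**Figure D4:**
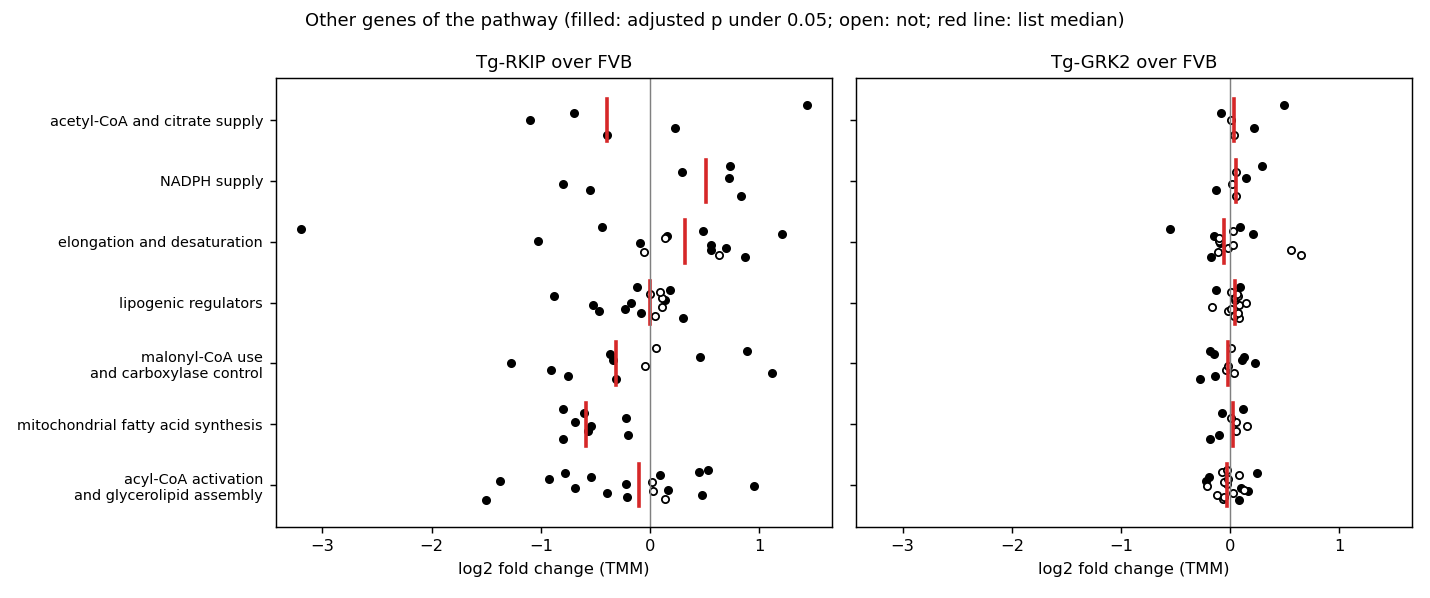
Log2 fold change (TMM, horizontal axis) of 77 other pathway genes in 7 lists for Tg-RKIP over FVB and Tg-GRK2 over FVB, with 1 point a gene, filled where the adjusted p passed the threshold, and the list median as a red line. The spread is wider for Tg-RKIP, where all 8 mitochondrial genes lie below 0 under TMM though Mecr and Lias change sign with total reads.

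Marker genes of other cell types also differed between groups, upward in some lists and groups and downward in others. The counts of every marker list below stand beside those of all genes. Over all genes 36.8% were called higher and 37.1% lower in Tg-RKIP over FVB, and 12.2% and 12.2% in Tg-GRK2 over FVB. With total reads 9710 of 15504 genes were higher in Tg-RKIP. The median log2 ratio in TPM was 0.43 in Tg-RKIP and 0.04 in Tg-GRK2. All 10 white adipocyte markers rose in Tg-RKIP, with a median log2 fold change of 2.41, and their summed level was 1053 to 1074 TPM against 628 to 655 in FVB. Most of that sum was Fabp4, at 845 to 869 TPM in Tg-RKIP and 587 to 617 in FVB. By TMM Fabp4 differed by 0.08 between these groups. In Tg-GRK2 5 rose and 1 fell, and the sum was lower than in FVB, at 545 to 580 TPM, most of it Fabp4. Adipoq, which encodes the adipocyte hormone adiponectin, was at 2.81 to 3.38 TPM in FVB, 5.80 to 6.63 in Tg-GRK2 and 26.8 to 29.0 in Tg-RKIP. The 5 that rose in Tg-GRK2 were Adrb3 (2.55 on the log2 scale), Lep (1.49), Plin1 (1.32), Cidec (1.23) and Adipoq (0.95). In Tg-RKIP these stood at 3.08, 2.22, 2.47, 2.90 and 2.81. Fabp4 was the one that fell in Tg-GRK2 (-0.29). Retn (0.69), Cfd (0.17), Lipe (0.11) and Pparg (-0.03) did not pass there, against 2.34, 3.12, 0.31 and 0.22 in Tg-RKIP. No white adipocyte marker stayed at 3 reads or fewer in all libraries of a group. Their part in the members' values was not tested.

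Of the 4 brown adipocyte markers, Zic1 had at most 3 reads in every FVB and Tg-GRK2 library and was not tested, and the other 3 rose in Tg-RKIP and 1 in Tg-GRK2, with sums of 24.6 to 26.3 TPM in FVB, 28.3 to 31.1 in Tg-GRK2 and 71.3 to 73.9 in Tg-RKIP. All 5 macrophage markers rose in Tg-RKIP, to 263 to 271 TPM from 104 to 105, and 3 in Tg-GRK2, at 112 to 117. Over all genes 36.8% were called higher in Tg-RKIP and 12.2% in Tg-GRK2, each over FVB with TMM. All 5 fibroblast markers rose in Tg-RKIP, to 1821 to 1833 TPM from 863 to 887, and 3 in Tg-GRK2, at 921 to 933. All 4 club cell markers rose in both transgenic groups, to 91.6 to 96.6 TPM in Tg-RKIP and 191 to 201 in Tg-GRK2, and Scgb1a1, Scgb3a2 and Bpifa1 had at most 3 reads in every FVB library. Their part, too, was not tested.

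The alveolar type II list, whose defining gene Sftpc had at most 3 reads everywhere, summed to 6.35 to 7.63 TPM in FVB, 7.78 to 9.06 in Tg-GRK2 and at most 12.2 in Tg-RKIP (mean 11.6 ± 0.621). Of its 2 tested genes 1 rose and 1 fell in Tg-RKIP with TMM, and both were higher with total reads. The hepatocyte list summed to 11.5 to 12.3, 8.01 to 8.24 and 32.7 to 33.8 TPM in the same order, with Fgb at 3 reads or fewer in every library and Alb in the transgenic ones. Of its 2 tested genes 1 rose and 1 fell in Tg-RKIP, and both fell in Tg-GRK2. Of 4 tested Schwann cell markers 3 rose in Tg-RKIP, where the list summed to 9.95 to 10.8 TPM against 4.20 to 4.43 in FVB and 4.82 to 5.08 in Tg-GRK2. The heart's own muscle markers, 7 in all, summed to 59267 to 59652 TPM in FVB, 56479 to 58301 in Tg-GRK2 and 57038 to 58191 in Tg-RKIP. With TMM 6 of the 7 fell in Tg-RKIP and 0 rose, with total reads 5 were lower and 2 higher, and in Tg-GRK2 2 rose and 5 fell.

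**Figure D5:**
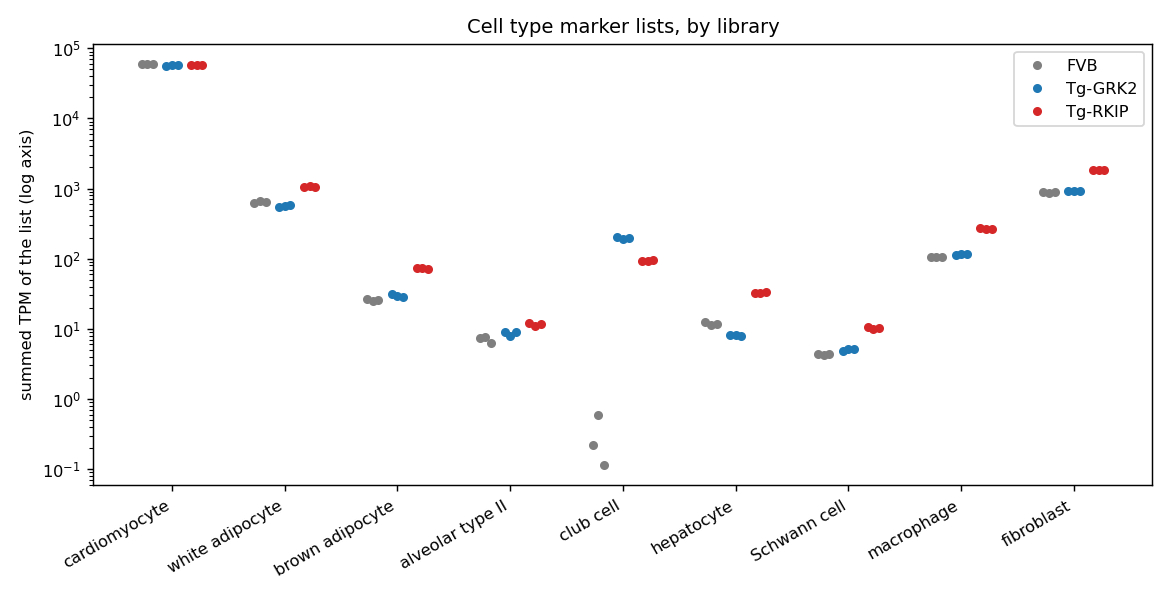
Summed TPM of each cell type marker list (logarithmic vertical axis) in the 3 libraries of FVB, Tg-GRK2 and Tg-RKIP. White adipocyte sums, most of them Fabp4 in every group, were 1053 to 1074 TPM in Tg-RKIP, above both other groups. Club cell sums were under 1 TPM in FVB only.

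The genes whose pattern over the 9 libraries lay closest to Fasn were Cbr2, Col5a3, Igsf10, Colq and Fndc1, among 11352 genes with a mean of at least 100 reads. Closeness was the Euclidean distance between log2 TMM-scaled counts centred on each gene's mean, and it was 0.313 for Cbr2 and 0.358 to 0.624 for the others. Cbr2, a carbonyl reductase, had 22.4 TPM in FVB, 42.3 in Tg-GRK2 and 60.9 in Tg-RKIP. On the TMM scale used for the distance, its log2 fold change over FVB was 0.90 in Tg-GRK2 and 0.94 in Tg-RKIP. No other member of the list and no pathway gene was among the 5.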

How the data were processed

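The authors deposited read counts per Ensembl transcript as whole numbers and TPM per transcript for each library. The submitters' processing notes name GRCm39, and the aligner and counter are not given in the sources used here. Counts and TPM were summed over 127558 transcripts into 41710 gene names. Counts were fitted in R 4.3.3 with edgeR 4.0.16 (TMM, filterByExpr, glmQLFit and glmQLFTest, a mean per group, all 9 libraries) with Benjamini-Hochberg adjusted p over all 15504 tested genes and a threshold of 0.05. Transcript usage was fitted with diffSpliceDGE on transcripts of at least 10 reads in 3 libraries. On simulated data whose spread differed between transcripts of a gene, the usage test made more false calls than its threshold allows. DESeq2 1.42.0 and limma 3.58.1 served as alternatives. Members and lists were chosen with earlier results of these data known. Named were the members, their paralogs, and the 2 highest and 2 lowest genes of each pathway list in Tg-RKIP over FVB. Cpt1a, Cpt1b and the 5 genes closest to Fasn were added. Sequences came from RefSeq (GRCm38.p6) and GENCODE M21.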

Additional observations from a re-analysis of the deposited data

How the results depend on the processing

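Members called numbered 10 in Tg-RKIP over FVB, 9 in Tg-GRK2 over FVB and 10 in Tg-RKIP over Tg-GRK2. Tested against a fold of 1.5 (glmTreat) they numbered 3, 4 and 1, and pathway genes 27, 0 and 23 in place of 64, 31 and 61. With limma on TPM and no filter, 6 members were called in Tg-RKIP over Tg-GRK2 and 17 pathway genes in Tg-GRK2 over FVB, and the most abundant transcript of each gene gave 15 of the latter. Usage calls in Tg-GRK2 over FVB were 1, but 0 with only those libraries and 0 to 2 when 1 library was left out, and 5 in place of 3 with limma's diffSplice in Tg-RKIP over Tg-GRK2. The cause was not tested. In Tg-RKIP over Tg-GRK2, log2 fold changes reversed with total reads to 0.20 for Fasn, 0.12 for Acly, 0.0491 for Scd1 and 0.0157 for Me1. On log2(TPM + 0.1), with and without a filter, they were 1.46, 0.10, 0.0531 and 0.0171, and on log2(TPM + 1) 1.43, 0.0922, 0.0526 and 0.0169. Srebf1 in Tg-GRK2 over FVB became -0.0908 for its most abundant transcript and -0.00188 with protein-coding transcripts only, an alternative chosen after seeing the data. The members' other log2 fold changes kept their sign under every alternative run. Over all genes, calls in the same order of comparisons were 5709 higher and 5751 lower, 1895 and 1898, and 5874 and 5677. Against a fold of 1.5 they were 1975 and 1690, 82 and 73, and 2033 and 1834. In Tg-GRK2 over FVB the most abundant transcript gave 816 and 844, and limma on TPM with no filter 1415 and 645. Usage calls over all genes were 1522, 142 and 1888, and 3205, 504 and 3836 with diffSplice, and for the second comparison 78 without Tg-GRK2 replicate 1. Same-numbered replicates did not deviate together (correlations -0.04 to 0.04), and with the replicate block the members called were 10, 9 and 10, pathway genes 64, 28 and 62, and usage calls 3, 1 and 3, with 63 usage calls in place of 142 over all genes in Tg-GRK2 over FVB and no member's call changed. Depth limits precision most for Elovl6, with as few as 65 reads in a library.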
